A study of Mus musculus with 4 samples.

Results

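The genes of adult hemoglobin, Hba-a1, Hba-a2, Hbb-b1 and Hbb-b2, and the erythroid heme gene Alas2 form a set of 5 genes, which were found by symbol among the 22609 genes of the RNA-Seq count data. They were chosen by their role and by their counts in these same libraries, FBN-ARO-KO+GCI against FLOX+GCI, so their own differences are described here without a test. The libraries were made from the hippocampus of ovariectomized female mice aged 3 to 5 months, with 2 libraries of the group FLOX+GCI and 2 of the group FBN-ARO-KO+GCI. In FBN-ARO-KO mice, Cyp19a1, the gene for aromatase, which makes estradiol, is deleted by a Cre driven by the CaMKIIα promoter, which is active in excitatory neurons of the forebrain, and FLOX mice served as controls. Ovaries were removed 1 week before global cerebral ischemia (GCI), produced by 20 min of common carotid artery occlusion, and tissue was taken after 24 h of reperfusion. Both groups therefore shared ovariectomy and ischemia, and no library without ischemia was analysed here. The sources used here do not say whether the libraries of a group came from separate mice, so the p-values below measure only the spread between these samples.

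Hemoglobin carries oxygen in red blood cells. It is built from paired alpha and beta globin chains, each holding a heme group, and in adult mice the alpha chains come from Hba-a1 and Hba-a2 and the beta chains from Hbb-b1 and Hbb-b2. The heme is made by an enzyme chain whose entry step, in red cell precursors, is catalyzed by Alas2, the erythroid form of 5-aminolevulinate synthase, while Alas1 serves in other tissues. Mature red cells have no nucleus, but young ones (reticulocytes) still hold globin and Alas2 RNA, so these transcripts are commonly read as a sign of blood in a tissue sample.

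Counts on genes totaled 24333396 to 33076795 per library, and 3 counts, used as the smallest amount that can be shown, corresponded to 0.0907 to 0.123 CPM (counts per 1000000 counts on genes), which covers counting error only. Cyp19a1, the targeted gene, had 4 and 1 counts in the FLOX+GCI libraries, against 2 and 2 in the FBN-ARO-KO+GCI libraries, which cannot check the genotype. The 9 hippocampal neuron markers were all above the filter on low counts, with summed levels of 10200 to 10855 CPM.

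The 4 hemoglobin genes were listed at 0 counts in all 4 libraries, and Alas2 was the only one of the 5 with counts. Hba-a1 had 0 counts in both FLOX+GCI replicates and in both FBN-ARO-KO+GCI replicates. The same values, 0 in each of the 4 libraries, were listed for Hba-a2, for Hbb-b1 and for Hbb-b2. Summing the near-identical genes, Hba-a1 with Hba-a2 and Hbb-b1 with Hbb-b2, left 0 counts as well. For a count of 0, the exact 95% Poisson interval reaches up to 3.69 counts. No fold change, no comparison between genotypes and no alpha to beta globin ratio could therefore be formed. Of all 22609 genes, 4788 (21.2%) were listed at 0 in all 4 libraries.

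**Figure D1:**
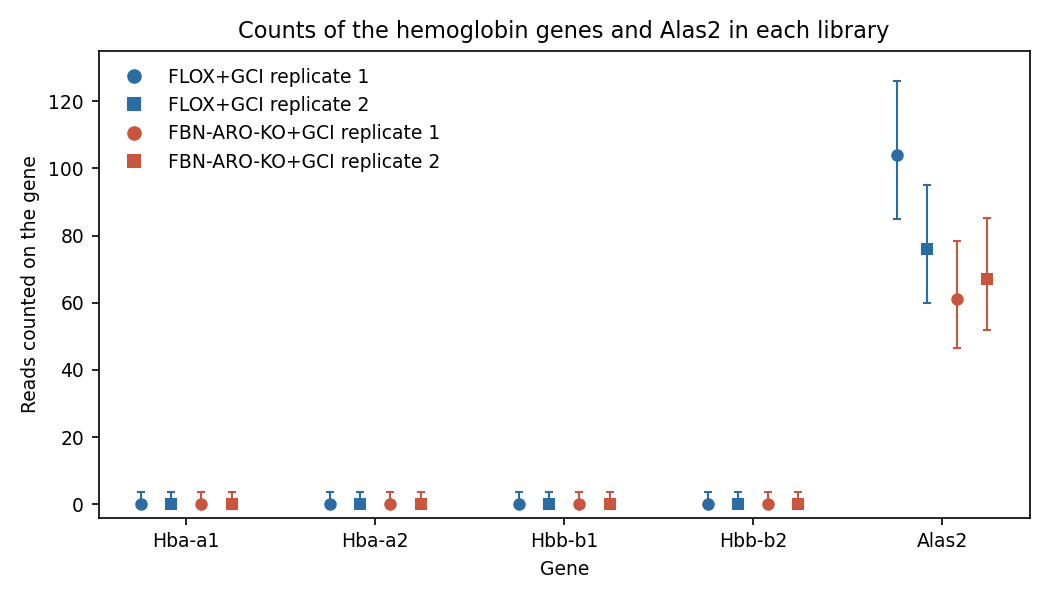
Reads counted on each of the 5 genes in each library, with exact 95% Poisson intervals as bars. The 4 hemoglobin genes lie at 0 in every library, while Alas2 lies between 61 and 104 counts.

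The genes of each globin pair are near copies of each other, and the parts that the reads would have to tell apart are shown here from the mouse genome (mm9). Over the 426 coding bases, Hba-a1 and Hba-a2 differed at 1 position (99.765% identity). Their coding exon 2 was the same in both, at chr11:32183924-32184128 for Hba-a1 and chr11:32196741-32196945 for Hba-a2, on the plus strand. It is given once, followed by the coding part of exon 3, at chr11:32184263-32184388 and chr11:32197080-32197205, where the capital marks the only base that differed. Counted from 1 at the start of the coding part of exon 3, the change from Hba-a1 to Hba-a2 was C81T.
Hba-a1 and Hba-a2, exon 2: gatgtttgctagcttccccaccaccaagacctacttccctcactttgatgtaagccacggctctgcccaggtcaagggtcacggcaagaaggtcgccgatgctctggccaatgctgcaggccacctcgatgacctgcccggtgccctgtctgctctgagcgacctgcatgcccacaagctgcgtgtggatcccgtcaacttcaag
Hba-a1, exon 3: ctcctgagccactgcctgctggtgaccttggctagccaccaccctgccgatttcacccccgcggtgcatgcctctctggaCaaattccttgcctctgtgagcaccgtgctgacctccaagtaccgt
Hba-a2, exon 3: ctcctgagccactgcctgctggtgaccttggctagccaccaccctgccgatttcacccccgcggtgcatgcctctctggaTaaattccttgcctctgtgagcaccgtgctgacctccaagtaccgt

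The beta pair was alike to the same degree. Over 441 coding bases, Hbb-b1 and Hbb-b2 differed at 1 position (99.773% identity). Coding exon 2, at chr7:110975962-110976184 for Hbb-b1 and chr7:110961953-110962175 for Hbb-b2 on the minus strand, was the same in both. In the coding part of exon 3, at chr7:110975182-110975307 and chr7:110961173-110961298, the change from Hbb-b1 to Hbb-b2 was C102T, again counted from 1 at the start of that part and given as the capital.
Hbb-b1 and Hbb-b2, exon 2: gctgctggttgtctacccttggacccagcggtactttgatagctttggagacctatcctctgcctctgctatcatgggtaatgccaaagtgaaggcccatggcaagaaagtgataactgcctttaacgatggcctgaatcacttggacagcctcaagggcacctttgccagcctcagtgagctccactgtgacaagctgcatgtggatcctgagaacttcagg
Hbb-b1, exon 3: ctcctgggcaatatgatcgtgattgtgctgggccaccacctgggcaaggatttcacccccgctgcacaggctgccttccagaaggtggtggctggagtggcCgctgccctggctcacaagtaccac
Hbb-b2, exon 3: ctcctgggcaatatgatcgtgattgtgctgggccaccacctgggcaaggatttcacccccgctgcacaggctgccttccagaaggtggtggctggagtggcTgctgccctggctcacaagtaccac

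The reads were 50 nt long, so each gene was described by how many of the 50 nt windows lying within its annotated exons occur once in the genome, on either strand and without mismatch. In Hba-a1 (chr11:32183511-32184465), 50 of 665 windows (7.52%) were found once. In Hba-a2 (chr11:32196489-32197301) the number was 50 of 523 (9.56%). Windows found once were thus a small part of either alpha globin gene. The beta globin genes had a larger share, 384 of 716 (53.6%) in Hbb-b1 (chr7:110975048-110976610) and 273 of 556 (49.1%) in Hbb-b2 (chr7:110961038-110962510). Of the windows wholly within the coding sequence, 25 of 294 were found once in each beta gene and 46 of 279 in each alpha gene, so that most windows found once in the beta genes reached outside the coding sequence. Alas2 stood at the other end, with all 1864 of its windows found once. Windows that span a splice junction were not included.

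Alignments that the counter set aside as not unique numbered 16276853 and 16308311 in the FLOX+GCI libraries, against 20518156 and 19197109 in the FBN-ARO-KO+GCI libraries. These were 35.1 to 36.5% of all assigned and unassigned entries. Across the genes of the annotation, the share listed at 0 in all libraries was 88.0% (360 of 409) where up to 10% of windows were found once, the range of both alpha globin genes. It was 51.5% (284 of 551) for genes with 40 to 60%, the range of both beta globin genes, and 13.8% (2491 of 18028) for genes with over 90%, the range of Alas2. Some genes that every cell uses were low in counts as well. Gapdh, a glycolytic enzyme gene with 49.8% of windows found once, had 14 and 26 counts in the FLOX+GCI libraries, against 44 and 12 in the FBN-ARO-KO+GCI libraries, and Rpl26, a ribosomal protein gene with 75.5%, was listed at 0 in all 4 libraries. Rps27a (83.1%), which encodes ubiquitin fused to a ribosomal protein, had 20 to 30 counts. These 3 genes were chosen after their values were seen. The part of sequence likeness in the zeros of the hemoglobin genes was not tested. Neither the annotation release used for counting nor any removal of globin RNA during library preparation is given in the sources used here. The same holds for whether blood was flushed from the vessels before RNA was isolated. The study's methods give perfusion with saline for the hippocampal protein lysates and the brain sections, but do not mention it for the RNA samples.

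**Figure D2:**
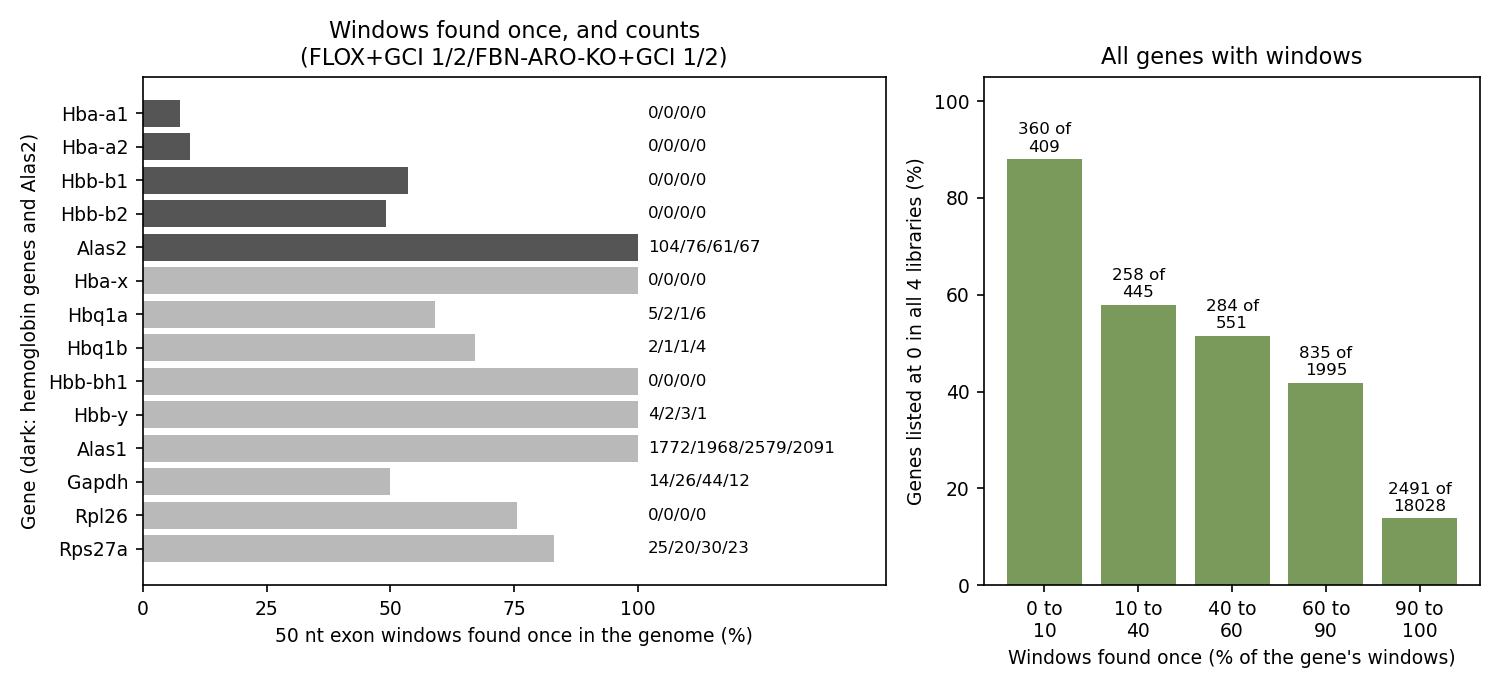
Left, the share of 50 nt exon windows found once in the genome for the hemoglobin genes, Alas2, the other globin genes and 4 comparison genes, with the 4 counts printed beside each bar. Right, the share of genes listed at 0 in all 4 libraries by that share, 88.0% in the lowest class and 13.8% in the highest, with the number of genes over each bar.

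How far the zeros limit the hemoglobin genes depends on these windows. Scaled to 1000 windows found once, Alas2 had 55.8 and 40.8 counts in the FLOX+GCI libraries, against 32.7 and 35.9 in the FBN-ARO-KO+GCI libraries. A floor of 3 counts stood at 7.81 on the same scale for Hbb-b1 and at 10.99 for Hbb-b2. Alas2 was therefore 4.19 to 7.14 times the floor of Hbb-b1 and 2.98 to 5.08 times the floor of Hbb-b2 over the 4 libraries, if reads from those windows were counted to the symbols. For Hba-a1 and Hba-a2 the floor was 60 counts per 1000 windows, and Alas2 lay at 0.545 to 0.93 of it in every library. Alpha globin RNA at the level of Alas2 would thus lie below the floor of 3 counts for either gene in any single library. This too holds only if reads from those windows were counted to the symbols. That cannot be assumed, since Rpl26 had 905 windows found once and 0 counts in every library. Rps27a had 1517 such windows and 20 to 30 counts. Whether the condition was met for the hemoglobin genes was not tested, so the floors are no firm limit on their RNA. The genes and libraries were not pooled for this bound.

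The other genes of the 2 globin clusters, which are used mainly in the embryo or whose product is little known, were at or near 0 too. Hba-x and Hbb-bh1, both embryonic globin genes with all windows found once, were listed at 0 in every library. Hbb-y, an embryonic beta-like globin gene with all windows found once, had 4 and 2 counts in the FLOX+GCI libraries, against 3 and 1 in the FBN-ARO-KO+GCI libraries. Hbq1a, a theta globin gene, had 5 and 2 counts in the FLOX+GCI libraries, against 1 and 6 in the FBN-ARO-KO+GCI libraries. The groups overlapped for both, and none of the 5 genes passed the filter.

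Alas2 lies on chromosome X at chrX:146981918-147005181 (mm9, plus strand), with 2403 bases of annotated exon. It was lower in both FBN-ARO-KO+GCI libraries than in both FLOX+GCI libraries. The gene had 104 counts (95% Poisson interval 85.0 to 126) in FLOX+GCI replicate 1 and 76 (59.9 to 95.1) in replicate 2. In FBN-ARO-KO+GCI it had 61 (46.7 to 78.4) in replicate 1 and 67 (51.9 to 85.1) in replicate 2, although these libraries held more reads in all. Scaled by library size with TMM factors, the levels were 4.15 and 3.08 CPM in the FLOX+GCI libraries, against 1.84 and 2.29 CPM in the FBN-ARO-KO+GCI libraries. The groups did not overlap, as was the case for 51.8% of the 14527 genes tested, and for 25.8% with FBN-ARO-KO+GCI lower.

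The mean level of Alas2 was 3.62 ± 0.755 CPM (SD, n = 2) for FLOX+GCI against 2.06 ± 0.316 CPM (SD, n = 2) for FBN-ARO-KO+GCI, a ratio of 1.75. Its log2 fold change was -0.81 (standard error 0.26), which is given without a test because the gene was chosen with it known. In order of level, the libraries ran from FLOX+GCI replicate 1 over FLOX+GCI replicate 2 and FBN-ARO-KO+GCI replicate 2 to FBN-ARO-KO+GCI replicate 1, and the counting intervals of neighbors in this order overlapped. FLOX+GCI replicate 2 (2.43 to 3.86 CPM) and FBN-ARO-KO+GCI replicate 2 (1.77 to 2.90 CPM) were among these overlapping neighbors, with a ratio of 1.35 between them, next to a ratio of 1.35 between the FLOX+GCI replicates. FLOX+GCI replicate 1 (3.39 to 5.03 CPM) lay outside the intervals of both FBN-ARO-KO+GCI libraries. With 1 library left out at a time, the log2 fold change of Alas2 ranged from -1.01 without FLOX+GCI replicate 2 to -0.58 without FLOX+GCI replicate 1. After a correction for GC content and length, it was -0.71. In bulk tissue, fewer cells of a type and less RNA per cell cannot be told apart.

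By level, Alas2 was a low gene. It ranked 12159 of the 14527 genes tested by mean CPM, with 16.3% of them below it. The annotated span of Apex2, a DNA repair gene on the minus strand, covers that of Alas2, and the exons of the 2 genes overlapped by 311 bases. Apex2 had 101 and 115 counts in the FLOX+GCI libraries, against 164 and 137 in the FBN-ARO-KO+GCI libraries. Its levels, 4.03 and 4.67 CPM in the FLOX+GCI libraries, against 4.95 and 4.68 CPM in the FBN-ARO-KO+GCI libraries, did not run in the direction of Alas2. How the counter treated strand is not given in the sources used here, so how reads in the 311 shared bases were assigned is not known. Reads that the counter set aside as ambiguous were 0.265 to 0.283% of all assigned and unassigned entries.

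Among the 9 genes of the heme synthesis enzymes, compared per length of exon, Alas2 was the lowest. Its level was 1.73 and 1.28 CPM per kb in the FLOX+GCI libraries, against 0.766 and 0.952 CPM per kb in the FBN-ARO-KO+GCI libraries. Alas1, the form of the same enzyme used outside red cells, stood at 16.4 and 18.5 CPM per kb in the FLOX+GCI libraries, against 18.1 and 16.6 CPM per kb in the FBN-ARO-KO+GCI libraries. The ratio of Alas1 to Alas2 was 9.50 and 14.4 in the FLOX+GCI libraries, against 23.6 and 17.4 in the FBN-ARO-KO+GCI libraries, so the 2 groups did not overlap in this ratio. It shares its Alas2 values with the difference above. The highest of the enzymes was Fech, ferrochelatase, which inserts iron at the end of the pathway, with a mean of 25.5 CPM per kb over the 4 libraries, followed by Alas1 with 17.4 and Urod, uroporphyrinogen decarboxylase, with 17.0. Next to Alas2 at the low end stood Ppox, protoporphyrinogen oxidase, with 2.88, against 1.18 for Alas2.

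**Figure D3:**
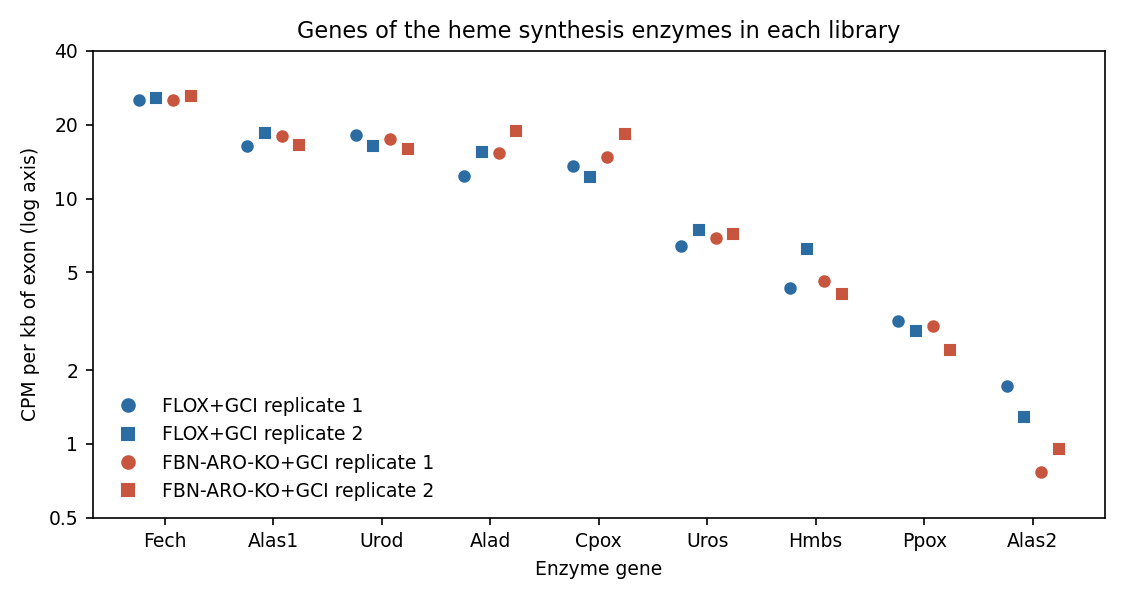
Level of each heme synthesis enzyme gene in each library, in CPM per kb of exon on a log axis, ordered by the mean over the 4 libraries. Alas2 is lowest in all 4 libraries, and its FBN-ARO-KO+GCI points (0.766 and 0.952) lie below its FLOX+GCI points (1.73 and 1.28).

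The profile of Alas2 over the 4 libraries, as log2 CPM minus the gene's own mean, was 0.60 and 0.18 for the FLOX+GCI libraries, against -0.54 and -0.24 for those of FBN-ARO-KO+GCI. The 10 genes most like it, by the root mean square difference from this profile, lay within 0.053 to 0.10 of it. They were Dbp, a transcription factor with a daily rhythm, Psmb9, a subunit of the immunoproteasome, Mrps18b, a mitochondrial ribosomal protein gene, Nptxr, the neuronal pentraxin receptor, Crhr2, a receptor for urocortins, Nhlh1, a neural transcription factor, Mir5109, Il2rg, the common gamma chain of cytokine receptors, Kcnk5, a potassium channel, and 4921507P07Rik. Their log2 fold changes ranged from -0.85 to -0.67. Dbp was by far the highest of them in counts, with 1876 and 1325 in the FLOX+GCI libraries, against 1192 and 1206 in the FBN-ARO-KO+GCI libraries. None of the 10 belonged to the erythroid, heme or blood lists below. With 4 libraries this likeness is a description only.

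**Figure D4:**
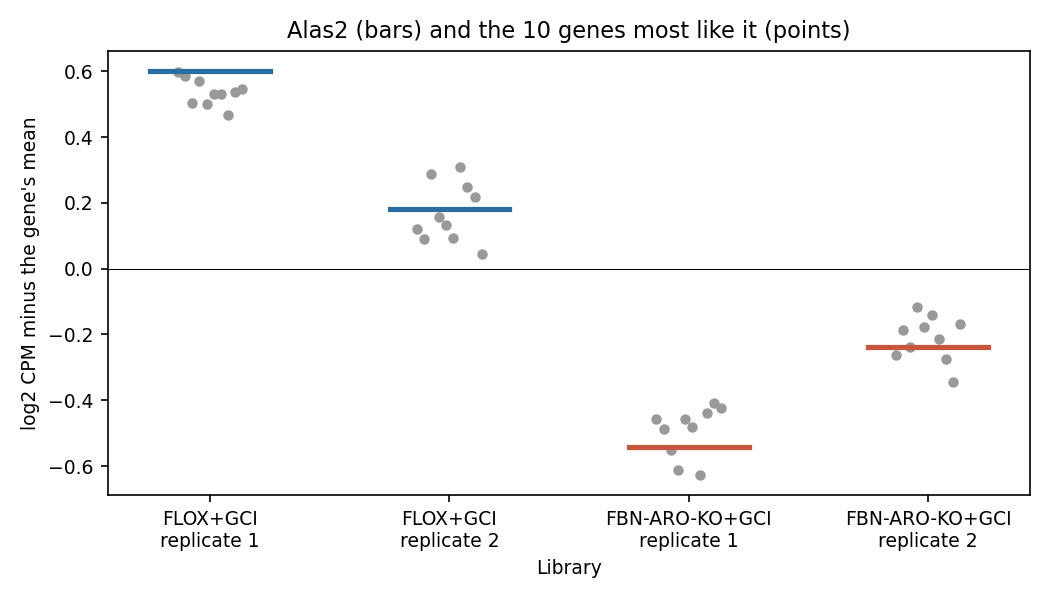
Level of Alas2 (colored bars) and of the 10 genes most like it (gray points) in each library, as log2 CPM minus each gene's mean over the 4 libraries. Alas2 lies at 0.60 in FLOX+GCI replicate 1 and at -0.54 in FBN-ARO-KO+GCI replicate 1.

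Whether the libraries held other signs of red cells was read from lists of genes that such cells use. Several genes that mark red cells were at or near 0, as the hemoglobin genes were. Slc4a1, the band 3 anion exchanger, had 5 and 6 counts in the FLOX+GCI libraries, against 3 and 4 in the FBN-ARO-KO+GCI libraries. Rhag, of the Rh complex, was listed at 0 throughout. Of the erythroid transcription factors, Gata1 and Gfi1b were listed at 0 in every library. Klf1 had 3 and 2 counts in the FLOX+GCI libraries, against 5 and 3 in the FBN-ARO-KO+GCI libraries, and Nfe2 had 0 and 1 against 0 and 1. Other regulators of that list were not near 0. Tal1 had 48 and 60 counts against 72 and 58, and Lmo2 had 487 and 385 against 505 and 396. Zfpm1 and Ldb1 were higher still, and 11 of the 15 genes of the list passed the filter. All of these genes were named for their role after their values were seen. Of the 23 red cell genes in the files, 13 had fewer than 10 counts in all libraries. Other genes of these lists had more counts. Gypc, glycophorin C, had 95 and 57 counts in the FLOX+GCI libraries, against 75 and 48 in the FBN-ARO-KO+GCI libraries, with a log2 fold change of -0.64 in groups that did not overlap as CPM. Icam4, a red cell adhesion protein, had 33 and 33 against 28 and 11, with a log2 fold change of -1.10, unadjusted p = 0.0373 and adjusted p = 0.278 in edgeR's quasi-likelihood test, and its groups did not overlap either. Epor, the erythropoietin receptor, had 139 and 87 against 132 and 113, and its groups overlapped. The groups overlapped as CPM for Tal1 as well, with a log2 fold change of -0.065. These genes too were named after their values were seen. In bulk tissue the cells behind the counts on Tal1, Lmo2, Zfpm1, Ldb1, Gypc, Icam4 and Epor cannot be told, so they are not read as red cell RNA.

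The most abundant of the red cell genes, both of which neurons also use, were Spnb1, the beta spectrin of the red cell skeleton, at 367 ± 24.9 CPM (SD, n = 2) for FLOX+GCI against 367 ± 17.6 CPM (SD, n = 2) for FBN-ARO-KO+GCI, and Epb4.9, dematin, at 342 ± 9.41 CPM and 342 ± 5.07 CPM. Their log2 fold changes were -0.00071 and -0.0030, with signs that turned under other settings. The 10 red cell genes tested had a median log2 fold change of -0.0019, against -0.0074 for all genes tested.

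No gene of any list outside the 5 was called. Of 157 list genes, 97 were tested, and 0 of these passed the threshold of 0.05 in edgeR's quasi-likelihood test after Benjamini-Hochberg adjustment (smallest adjusted p = 0.238), against 0.0138% of all genes tested. At an unadjusted p under 0.05 there were 21, against a background of 16.5%. Of these, 4 were higher in FBN-ARO-KO+GCI, against 8.72% of all genes tested, and 17 were lower, against 7.82%. edgeR's likelihood ratio test called 4 of them (Blvrb, Hmox1, Kit and Ttr), against 2.02% of all genes, and DESeq2 called 2, Kit among them, against 4.92% of the genes to which it gave an adjusted p. The groups did not overlap for 50 of the 97, against 51.8% of all genes.

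**Figure D5:**
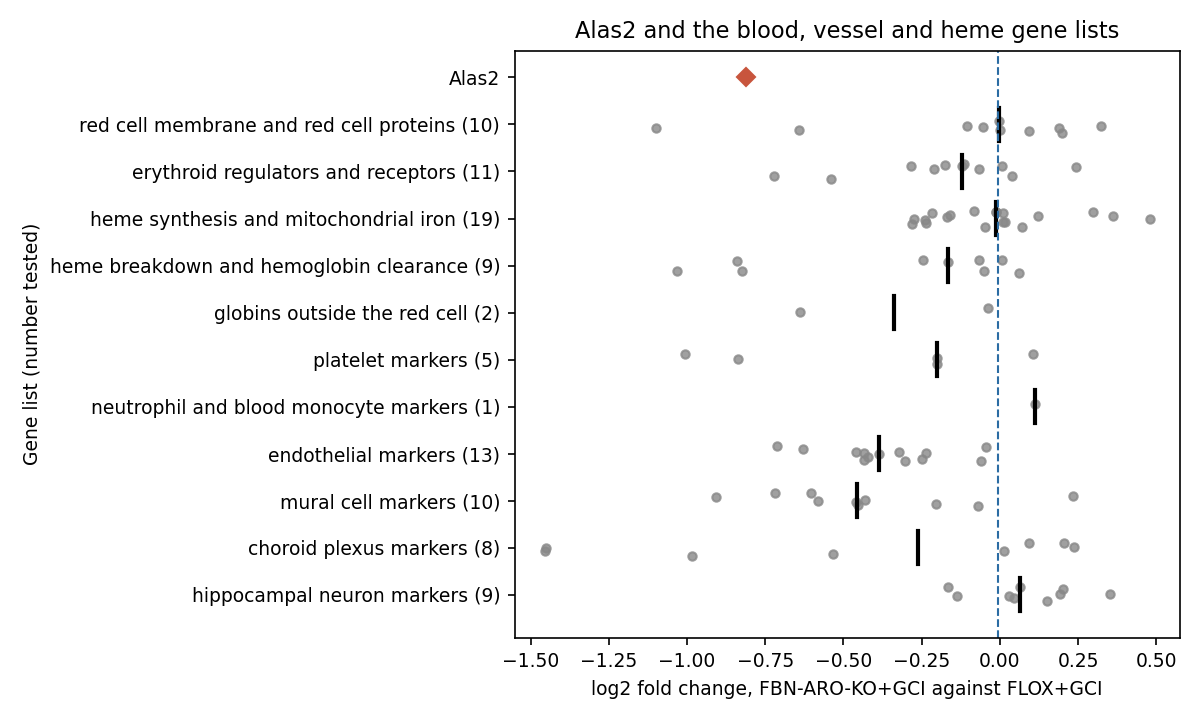
Log2 fold change between genotypes for Alas2 (diamond) and for each tested gene of the lists (points), with the median of each list as a bar and the median of all genes tested as a dashed line. Alas2, which was chosen with its value known, lies at -0.81. The medians of the lists with a tested gene run from -0.46 for mural cells to 0.11 for the single neutrophil gene tested. Some single list genes lie lower than Alas2, among them Icam4 at -1.10 and Hmox1 at -1.03.

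The other heme synthesis genes, read on their own, had a median near that of all genes tested, while single genes moved both ways. For the 19 genes of heme synthesis and mitochondrial iron the median was -0.013 on the log2 scale. After the correction for GC and length the median was 0.059, against 0.029 for all genes tested. Alas1 had 1772 and 1968 counts in the FLOX+GCI libraries, against 2579 and 2091 in the FBN-ARO-KO+GCI libraries, or -0.013 on the log2 scale (standard error 0.092), and the groups overlapped. Fech had a log2 fold change of 0.010. Among the 11 tested genes of erythroid regulators and receptors, the median log2 fold change was -0.12. The most abundant were Tfrc, the transferrin receptor that brings iron into cells, with a log2 fold change of 0.039, and Bcl11a, a repressor of fetal globin genes that neurons also use, with 0.0069. Kit, the stem cell factor receptor, had 133 ± 21.4 CPM (SD, n = 2) for FLOX+GCI against 91.3 ± 3.23 CPM (SD, n = 2) for FBN-ARO-KO+GCI, with a log2 fold change of -0.54 with unadjusted p = 0.00173 and adjusted p = 0.238 in edgeR's quasi-likelihood test.

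Genes that take up and break down hemoglobin and heme had a median of -0.17 on the log2 scale over 9 tested. Hmox1, the inducible heme oxygenase that opens the heme ring, had 197 and 359 counts in the FLOX+GCI libraries, against 170 and 171 in the FBN-ARO-KO+GCI libraries. Its log2 fold change was -1.03 (standard error 0.28), and the higher FLOX+GCI library was replicate 2, whereas for Alas2 it was replicate 1. Without FLOX+GCI replicate 2 the value was -0.52, and without FLOX+GCI replicate 1 it was -1.41. Blvrb, a biliverdin reductase gene, had 257 and 283 counts in the FLOX+GCI libraries, against 191 and 187 in the FBN-ARO-KO+GCI libraries. Its log2 fold change was -0.84. Neither Hmox1 nor Blvrb was called (adjusted p = 0.238 for both in edgeR's quasi-likelihood test), and in both the groups did not overlap. Blvra, the other biliverdin reductase gene of the list, is outside the naming rule. Its log2 fold change was -0.17, with unadjusted p = 0.232 in that test. The most abundant were Lrp1, a receptor that also takes up heme bound to hemopexin, at -0.25, and Slc48a1, a heme transporter, at -0.052. Of the globins used outside red cells, Ngb, neuroglobin of neurons, had 112 and 94 counts in the FLOX+GCI libraries, against 89 and 77 in the FBN-ARO-KO+GCI libraries, with a log2 fold change of -0.64, unadjusted p = 0.0184 and adjusted p = 0.248 in that test. Cygb, cytoglobin, had a log2 fold change of -0.039. Unlike the hemoglobin genes, both of these globin genes were counted in every library.

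Markers of other blood cells were low. Platelet markers summed to 9.18 and 9.57 CPM in the FLOX+GCI libraries, against 8.93 and 6.52 CPM in the FBN-ARO-KO+GCI libraries, mostly from Gp1bb, with 129 and 128 counts against 159 and 123, and Itga2b, with 27 and 53 counts against 41 and 16. Pf4, a defining platelet gene outside the naming rule, had 27 and 8 counts in the FLOX+GCI libraries, against 18 and 4 in the FBN-ARO-KO+GCI libraries. Neutrophil and blood monocyte markers summed to 5.71 and 5.72 CPM in the FLOX+GCI libraries, against 5.85 and 6.66 CPM in the FBN-ARO-KO+GCI libraries, of which Csf3r held the most, with 111 and 113 counts against 162 and 142, and Ccr2 had 10 and 8 against 10 and 9. The sums therefore rest mostly on Csf3r, and the cells behind its counts, as behind those of Gp1bb, cannot be told in bulk tissue. Outside the naming rule, S100a8 had 0 and 5 counts against 3 and 16, and S100a9 had 7 and 2 against 5 and 15. Lymphocyte markers summed to 1.08 and 1.05 CPM in the FLOX+GCI libraries, against 0.634 and 0.376 CPM in the FBN-ARO-KO+GCI libraries, led by Cd79b, with 13 and 8 counts against 6 and 3, and Cd79a, with 4 and 6 against 3 and 0. The lymphocyte sums were lower in both FBN-ARO-KO+GCI libraries, like Alas2, on 11 to 27 counts per library. So were the sums of the platelet, choroid plexus, erythroid regulator and heme breakdown lists. Those of the heme synthesis, neutrophil and monocyte, and neuron lists were higher in both. Of all single genes tested, 25.8% were lower in both FBN-ARO-KO+GCI libraries.

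Vessel markers differed widely between the libraries of a group. Endothelial markers summed to 459 and 329 CPM in the FLOX+GCI libraries, against 360 and 275 CPM in the FBN-ARO-KO+GCI libraries, so that the groups overlapped. All 13 had a negative log2 fold change, with a median of -0.39, and 5 of 13 did not overlap, all lower, against 51.8% of all genes in either direction and 25.8% lower. Without FLOX+GCI replicate 1 the median was -0.068 with 9 of 13 negative, and without FBN-ARO-KO+GCI replicate 2 it was -0.16 with 11 of 13. The other leave-outs moved it further from 0. The median was -0.67 with 12 of 13 negative without FLOX+GCI replicate 2, and -0.53 with 13 of 13 without FBN-ARO-KO+GCI replicate 1. Flt1, a receptor for vascular endothelial growth factor, had -0.24, and Itm2a, a membrane protein of endothelial cells, had -0.39. Mural cell markers summed to 344 and 231 CPM in the FLOX+GCI libraries, against 271 and 160 CPM in the FBN-ARO-KO+GCI libraries, with a median of -0.46 and 9 of 10 negative, among them Vtn, vitronectin of pericytes, at -0.43 and Acta2, smooth muscle actin, at -0.58. Their median was -0.13 without FLOX+GCI replicate 1 and -0.10 without FBN-ARO-KO+GCI replicate 2. It was -0.65 without FLOX+GCI replicate 2 and -0.79 without FBN-ARO-KO+GCI replicate 1. For both lists the size of the difference thus depended on which library was left out, while the median stayed negative. Within FLOX+GCI, replicate 1 was the higher library for both lists and for Alas2, whereas within FBN-ARO-KO+GCI replicate 1 was higher for both lists and lower for Alas2. Choroid plexus markers summed to 99.97 and 70.2 CPM in the FLOX+GCI libraries, against 61.97 and 58.7 CPM in the FBN-ARO-KO+GCI libraries, in which Ttr, transthyretin, had 664 and 540 counts against 296 and 458 (log2 fold change -0.98, unadjusted p = 0.00469, adjusted p = 0.238 in edgeR's quasi-likelihood test) and Kl had a log2 fold change of 0.094. The most abundant neuron markers, Camk2a and Snap25, had log2 fold changes of 0.044 and 0.20. The part of vessel, choroid plexus and lymphocyte RNA in the Alas2 values was not tested.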

How the data were processed

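Total RNA of the hippocampus was sequenced as 50 nt reads. Per the submitters' processing notes and the study's methods, the authors used TopHat2 (2.0.8b) for alignment to mm9 and HTSeq for counting, and deposited raw counts per gene symbol, with no normalization. The HTSeq version, the annotation and the strand setting are not given in the sources used here. The 5 counters of reads assigned to no gene were left out of library sizes; alignments set aside as not unique made up the largest of them, 35.1 to 36.5%.

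The 22609 symbols were compared between genotypes in R 4.3.3 with edgeR 4.0.16 (TMM, filterByExpr with a minimum count of 10, quasi-likelihood test, Benjamini-Hochberg adjustment over the 14527 genes kept, threshold 0.05). The standard error was the log2 fold change over the square root of F. An exact permutation test of 2 against 2 libraries cannot reach a p under 0.333. Alternatives were DESeq2 1.42.0, the likelihood ratio test, other scalings, other filters, a correction for GC content and length, a replicate block and each library left out.

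Positions, exons and sequences came from NCBIM37 (mm9) with GENCODE M1, in which 21430 symbols had a single locus. Windows were counted with Python 3.11.15. The members and lists were chosen with earlier results of these data known. Named genes were the members, the 2 highest genes of each list, any list gene with an adjusted p under 0.05 or an unadjusted p under 0.01, and the 10 genes most like Alas2 in log2 CPM (prior count 2); exceptions are marked. A few genes that the rule names are not reported here.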

Additional observations from a re-analysis of the deposited data

How the results depend on the processing

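The log2 fold change of Alas2 was -0.81. It moved by less than the SD between replicates under the scalings, filters, replicate block and GC and length correction run for it. It was -0.85 with library totals only and -0.71 after correcting for GC content and length. With 1 library left out it ran from -1.01 to -0.58. With 2 libraries per group, a shift from leaving 1 out can hardly exceed that SD, so this range is a description only. The hemoglobin genes had 0 counts however they were summed, so no alpha to beta globin ratio could be computed under any setting. The number of genes called over the whole table was 2 and depended on the test. It was 5 with every gene with at least 1 count, 294 with the likelihood ratio test, 285 with DESeq2, and 0 to 193 with 1 library left out, 0 without either FBN-ARO-KO+GCI library, 193 without FLOX+GCI replicate 1 and 127 without FLOX+GCI replicate 2. Of the list genes, 0 were called, against 4 with the likelihood ratio test, 2 with DESeq2, which gave 31 of them an adjusted p, and 0 to 4 with 1 library left out, 2 without FLOX+GCI replicate 1 (Blvrb and Hmox1) and 4 without FLOX+GCI replicate 2 (Cdh5, Itm2a, Kit and Ttr). Same-numbered libraries deviated from their group means with a correlation of 0.129 across genes, and the labels tie them by number only. With the replicate block, 184 genes and 10 list genes (Acta2, Blvrb, Cdh5, Hmox1, Kcnj13, Kit, Myh11, Slc13a4, Ttr and Vtn) were called, and that block together with the GC and length correction left 3 genes and 0 list genes. Named genes with log2 fold changes near 0 changed sign. Spnb1 came to 0.0021 with every gene with at least 1 count, 0.00015 with the block and 0.13 with the GC and length correction, with or without the block, and Epb4.9 to 6.19e-05, and to 0.036 with that correction. With it, without and with the block, the values were -0.18 and -0.18 for Tfrc, -0.12 and -0.12 for Bcl11a, 0.059 and 0.061 for Alas1, -0.025 and -0.025 for Fech, 0.10 and 0.10 for Slc48a1, 0.18 and 0.18 for Cygb, and 0.10 and 0.10 for Gp1bb. With library totals only, Bcl11a stood at -0.029 and Fech at -0.026. With 1 library left out, the ranges that crossed 0 were -0.067 to 0.067 for Spnb1, -0.029 to 0.022 for Epb4.9, -0.096 to 0.074 for Alas1, -0.020 to 0.037 for Fech, -0.19 to 0.094 for Cygb, -0.44 to 0.0051 for Flt1, -1.88 to 0.17 for Acta2 and -0.065 to 0.27 for Kl. The cause of these changes was not tested.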
